A study of Rattus norvegicus with 6 samples.

Results

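Genes of the immediate early response, 10 of the 16499 gene symbols in the table, were followed in rat synovial fibroblast-like cells: Egr1, Egr2, Egr3 and Egr4, Nr4a1, Nr4a2 and Nr4a3, and Ier2, Nab2 and Srf. They were chosen by gene name, with earlier results of these data known, and the values that made them of interest were their levels under the 3 sera compared here, so that the differences below are a description and no independent evidence. Each gene was read from its most abundant transcript row. The 10 genes had 11 rows of the 17221 in the table, because Nr4a3 had 2. Of the 10 genes, 9 passed the filter on low values together with 9820 rows of the whole table, and Egr4 did not.

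EGR proteins are zinc-finger transcription factors that bind GC-rich sites, and their genes are switched on by serum, growth factors and stress without new protein synthesis. NR4A proteins are orphan nuclear receptors, also induced at the level of transcription, and Nr4a genes are known to respond to cyclic AMP and to inflammatory stimuli in synovial tissue. SRF, the serum response factor, binds CArG boxes in the promoters of many immediate early genes, including its own. NAB2 is a corepressor that binds EGR proteins, its gene is itself an EGR target, and Ier2 encodes a small nuclear protein of the immediate early response.

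Cells came from the joints of 2 female Wistar rats with collagen-induced arthritis, a model of rheumatoid arthritis, taken before any therapy, and the cells of all 3 groups came from these same diseased animals. The cells of each rat were divided over 3 media, which gave 6 libraries of messenger RNA, 2 per group: fetal bovine serum (FBS), serum of animals not given the stimulation (MS-), and serum of animals after 18 days of stimulation with needles (MS+). Replicates are therefore the 2 rats whose cells were grown, the number of serum donors is not stated in the sources used here, and the state of the MS- serum donors is described in more than one way, once as healthy and elsewhere as arthritic. By the study's methods MS- serum was drawn before any therapy began, so that MS+ and MS- serum also differ in the time of drawing. Cells were harvested days after these sera were added, so that the levels are not those of the first hours of contact. All libraries were made from cells in culture, so that in these bulk samples fewer cells that express a gene and less RNA per cell cannot be told apart.

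Promoter sequence was taken from RefSeq windows of the rat build GRCr8, which run from 250 bases before to 50 bases after the annotated start and were found by symbol for 8 of the 10 genes. The 5 stretches printed here, 100 bases each from position -140 to -41 relative to the start and 5′ to 3′ on the strand of the gene, are those that hold a CArG box, an EGR site or a full cyclic AMP response element (CRE). Capitals mark these motifs and the short CRE core TGACG, on either strand.
Egr1 (chr18:26736938-26737037, plus strand): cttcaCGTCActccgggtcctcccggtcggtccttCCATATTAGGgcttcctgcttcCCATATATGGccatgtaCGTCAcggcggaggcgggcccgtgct
Egr2 (chr20:21054482-21054581, minus strand): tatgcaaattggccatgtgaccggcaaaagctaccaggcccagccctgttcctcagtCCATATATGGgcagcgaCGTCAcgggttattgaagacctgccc
Srf (chr9:21923936-21924035, plus strand): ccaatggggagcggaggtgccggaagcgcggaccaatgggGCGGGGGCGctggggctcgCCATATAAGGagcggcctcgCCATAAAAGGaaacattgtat
Ier2 (chr19:40399233-40399332, plus strand): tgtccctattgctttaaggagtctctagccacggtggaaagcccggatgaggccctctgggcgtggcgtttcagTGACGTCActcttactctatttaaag
Nr4a1 (chr7:134259998-134260097, plus strand): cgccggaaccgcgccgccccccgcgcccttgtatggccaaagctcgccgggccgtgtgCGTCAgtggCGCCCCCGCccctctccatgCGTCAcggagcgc

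CArG boxes, the sites of SRF, were matched in 3 of the 8 windows. Egr1 held 2 of them, at positions -105 to -96 and -83 to -74, Srf held 2, at -81 to -72 and -61 to -52, and Egr2 held 1, at -83 to -74. Among all 33469 windows of the same length, 1.64% held a CArG box. The EGR site, searched as GCGNGGGCG on both strands, was matched in Nr4a1 and in Srf, and in 4.98% of all windows. The full CRE, TGACGTCA, was matched in Ier2 and in 1.83% of all windows, whereas its short core TGACG, which overlaps the full CRE, was matched in 7 of the 8 windows and in 21.2% of all. NBRE, the site of NR4A monomers searched as AAAGGTCA on both strands, was matched in 0 of the 8 windows and in 1.43% of all. Each match is a stretch of letters and not a measured site. The map of motif matches by distance from the start shows these positions for the 8 windows.

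**Figure D1:**
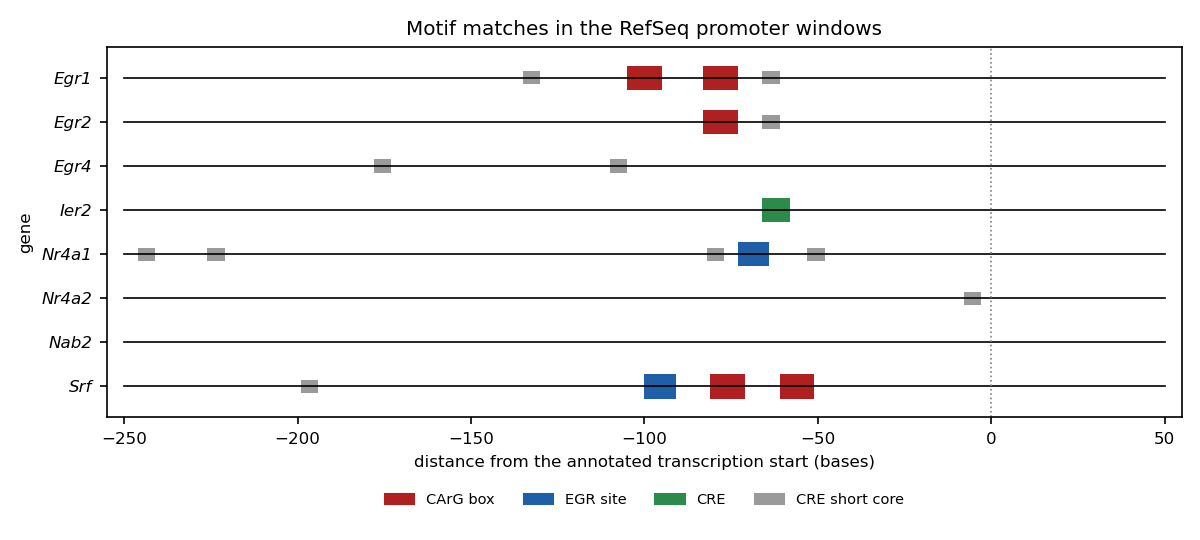
Motif matches in the 300-base promoter windows of 8 genes, plotted by distance in bases from the annotated start, with red blocks for CArG boxes, blue for EGR sites, green for the full CRE and small grey blocks for the short CRE core. CArG boxes lie between positions -105 and -52 in Egr1, Egr2 and Srf, and Nab2 has no match.

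The libraries held 5463316 to 5991889 reads, and 9678 to 9749 rows reached 1 CPM, the read count scaled to a common library size, in each. The detection floor of 1 library was set at 3 reads, or 0.491 to 0.551 CPM. Of 11 fibroblast markers, 9 passed the filter, with Col1a1 and Vim at averages of 29364 and 13480 CPM, while decorin (Dcn, 0.211 CPM) and lumican (Lum, 0.511 CPM), which fibroblasts usually express, averaged near or under the floor and lubricin (Prg4), of the synovial lining, averaged 1.94 CPM. The summed level of the fibroblast list was 81171 to 88027 CPM in FBS, 62830 to 65438 CPM in MS- and 71279 to 73960 CPM in MS+. Macrophage markers summed to 13.8 to 20.5 CPM, mostly from Cd14, with 6 of the 9 in the table (Emr1, Cd163, Ptprc, Itgam, Lyz2 and Aif1) at 0 in every library. All 7 blood cell markers in the table were at 0, and endothelial markers summed to 0.181 to 1.47 CPM. Skeletal muscle markers summed to 1152 to 1265 CPM in FBS, 980 to 1022 CPM in MS- and 1145 to 1233 CPM in MS+, mostly from Acta1, whose reads may be shared with closely similar actin genes, while Ckm and Mb averaged under the floor. Myh1, a skeletal myosin gene, was at 24.2 and 271 CPM in FBS, 47.6 and 209 CPM in MS-, and 19.6 and 88.3 CPM in MS+ for rats 1 and 2, and Myh2 at 6.13 to 57.7 CPM; both were higher in rat 2 under each serum and lower in MS+ than in MS- and FBS with the rat as a block. The part of these levels in the results below was not tested.

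Egr1, Egr2, Egr3 and Ier2 had their highest level in MS- in each rat, above both FBS and MS+. Nr4a1 and Nr4a3 stood above FBS in both rat sera in each rat, and Nr4a2 stood above the other sera in MS+. Nab2 and Srf were lowest in MS+ in both rats. Differences are given on the log2(CPM + 1) scale with the standard error (SE) of limma, the adjusted p is over all 9820 rows, and a gene is called where it is under 0.05. Values with the rat as a block, which compare the sera within each rat, stand beside those without it where the call changed. A range over the alternatives, where given beside a blocked value, covers alternatives to the fit without the block. The blocked value is itself among them. The upper end comes from a fit without the block, mostly with a lone library in a group. Such a range therefore does not show how stable the blocked value is.

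**Figure D2:**
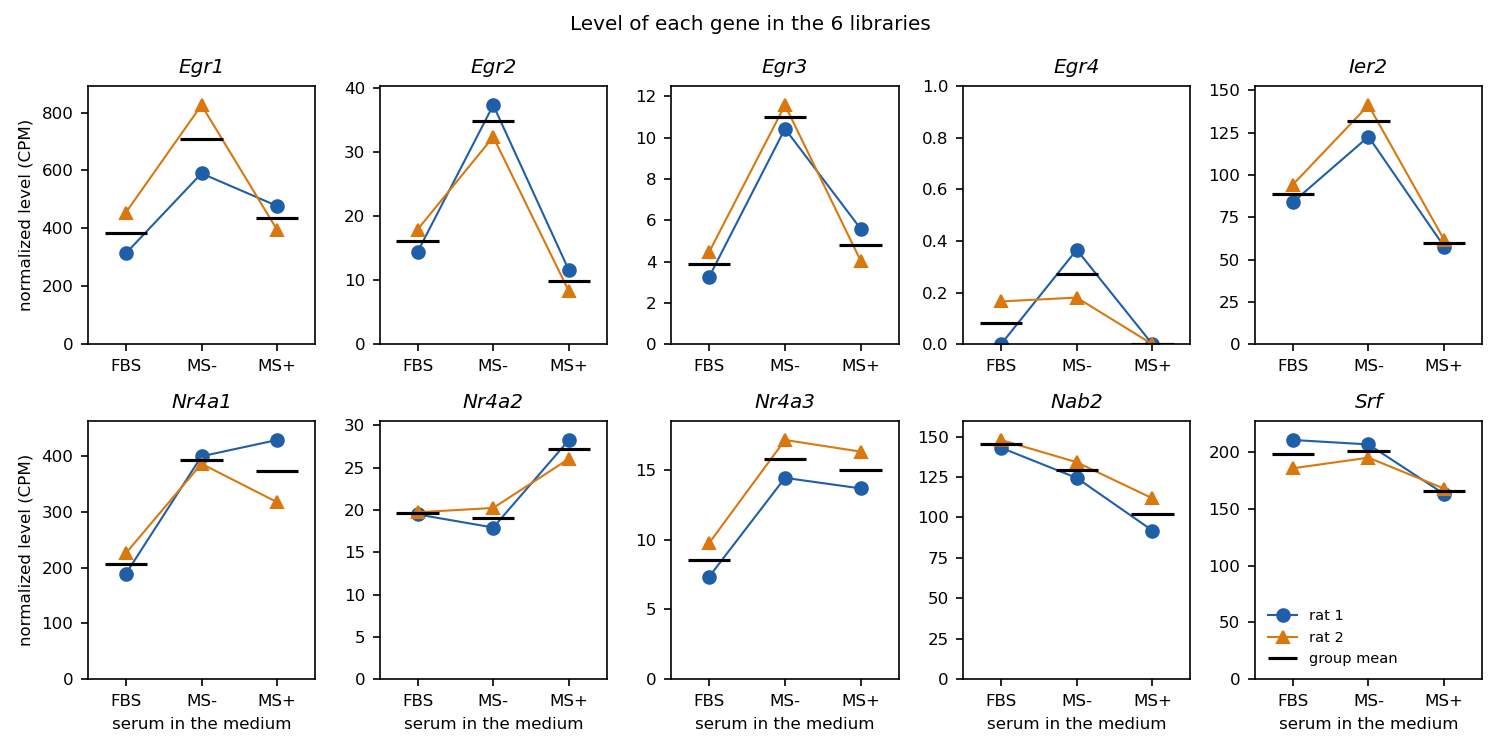
Level of each of the 10 genes in CPM (vertical axis, from 0) under the 3 sera (horizontal axis), with circles joined by a line for rat 1, triangles for rat 2 and a black bar for the group mean of 2 rats. Egr1, Egr2, Egr3 and Ier2 peak in MS- in both rats, and Egr4 has at most 2 reads in a library.

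Egr1 (NM_012551, rn4 chromosome 18, 27343919 to 27346117, plus strand), the best known member of its family, measured 314 and 455 CPM in FBS, 590 and 826 CPM in MS-, and 477 and 394 CPM in MS+, for rats 1 and 2. Both MS- libraries lay above the other 4, and the FBS and MS+ libraries overlapped. Against FBS, MS- cells held 1.84 times the mean level, a log2 fold change of 0.88 (SE 0.22), which was not called without the block (adjusted p = 0.0812) and was called with it (adjusted p = 0.000284; range over the 16 alternatives 0.000145 to 0.327). Against MS-, MS+ cells held 0.616 times the mean level (log2 fold change -0.68, SE 0.22), with an adjusted p of 0.243, and of 0.00537 with the block (range over the 16 alternatives 0.00438 to 0.598). On the log2 scale this difference was -0.31 for rat 1 and -1.06 for rat 2. Between MS+ and FBS the log2 difference was 0.20 with a 95% interval from -0.33 to 0.73, and the rats went opposite ways.

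Egr2 (NM_053633, chromosome 20, 21883885 to 21888177, minus strand), known from hindbrain and Schwann cell development, measured 14.4 and 17.9 CPM in FBS, 37.3 and 32.4 CPM in MS-, and 11.5 and 8.26 CPM in MS+. These levels rested on 45 to 204 reads per library. The 3 groups did not overlap, with MS- highest, FBS between and MS+ lowest. Egr2 rose in MS- against FBS by 1.07 on the log2 scale (SE 0.20; adjusted p = 0.0349), and both rats showed it, with CPM ratios of 2.59 and 1.81. The MS+ mean was 0.284 times the MS- mean, a log2 fold change of -1.73 (SE 0.20) that was not called without the block (adjusted p = 0.0729) and was called with it (adjusted p = 3.77e-05; range over the 16 alternatives 5.3e-06 to 0.456). MS+ was also lower than FBS, by a log2 fold change of -0.66 (SE 0.20; adjusted p = 0.089), called with the block (adjusted p = 0.0119; range over the 16 alternatives 0.0119 to 0.289). The CPM ratio of MS+ to FBS was 0.800 in rat 1 and 0.461 in rat 2.

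Egr3 (NM_017086, chromosome 15, 50477453 to 50479909, plus strand), which shares the DNA-binding fold of the family, was measured at low depth, with 20 to 64 reads per library. Its levels were 3.27 and 4.48 CPM in FBS, 10.4 and 11.6 CPM in MS-, and 5.59 and 4.04 CPM in MS+. The MS- libraries lay above all others, and FBS and MS+ overlapped. Egr3 rose in MS- against FBS, with a log2 fold change of 1.31 (SE 0.23; adjusted p = 0.0296) and a ratio of mean CPM of 2.84, larger than the fold on the log2(CPM + 1) scale because the added 1 weighs on low levels. Against MS- the MS+ mean was 0.437 times as high (log2 fold change -1.06, SE 0.23), with an adjusted p of 0.144, and of 0.00926 with the block (range over the 16 alternatives 0.00628 to 0.475). Between MS+ and FBS the interval of the log2 difference ran from -0.30 to 0.81.

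Egr4 (NM_019137, chromosome 4, 119765289 to 119767612, minus strand) had 0 and 1 read in FBS, 2 and 1 in MS-, and 0 and 0 in MS+, under the floor of 3 reads in every library. No difference was detectable at this depth.

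Ier2 (NM_001009541, chromosome 19, 25159276 to 25160798, plus strand) measured 83.8 and 94.2 CPM in FBS, 123 and 141 CPM in MS-, and 57.7 and 61.7 CPM in MS+, and the 3 groups did not overlap. Ier2 rose in MS- against FBS (log2 fold change 0.56, SE 0.12; adjusted p = 0.0445) and fell in MS+ against FBS (log2 fold change -0.57, SE 0.12; adjusted p = 0.03). The MS+ mean was 0.452 times the MS- mean, with ratios of 0.470 in rat 1 and 0.437 in rat 2. This log2 fold change of -1.13 (SE 0.12) had an adjusted p of 0.0681, and of 4.13e-06 with the block (range over the 16 alternatives 8.7e-08 to 0.456).

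Nr4a1 (NM_024388, chromosome 7, 140012807 to 140020589, plus strand), also known as Nur77, measured 189 and 226 CPM in FBS, 400 and 386 CPM in MS-, and 429 and 317 CPM in MS+. All 4 libraries grown in rat serum lay above both FBS libraries, and the MS- and MS+ libraries overlapped. Nr4a1 rose against FBS in MS- (log2 fold change 0.93, SE 0.16; adjusted p = 0.0265) and in MS+ (0.83, SE 0.16; adjusted p = 0.0257). Its mean was 1.90 times the FBS mean in MS- and 1.80 times in MS+. The log2 difference of MS+ from MS- was -0.09 with a 95% interval from -0.47 to 0.29, and its sign differed between the rats.

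Nr4a2 (NM_019328, chromosome 3, 38866210 to 38871678, minus strand), also known as Nurr1, measured 19.5 and 19.7 CPM in FBS, 17.9 and 20.2 CPM in MS-, and 28.3 and 26.1 CPM in MS+. Both MS+ libraries lay above the other 4, which overlapped. MS+ exceeded MS- by a log2 fold change of 0.49 (SE 0.14), with an adjusted p of 0.200, and of 0.0458 with the block (range over the 16 alternatives 0.0411 to 0.537). It exceeded FBS by 0.45 (SE 0.14), with an adjusted p of 0.0882, and of 0.0312 with the block (range over the 16 alternatives 0.0246 to 0.306). The log2 difference of MS- from FBS was -0.04, with a 95% interval from -0.36 to 0.29.

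Nr4a3 (NM_031628, chromosome 5, 64713468 to 64753306, plus strand), also known as Nor1, measured 7.37 and 9.78 CPM in FBS, 14.5 and 17.2 CPM in MS-, and 13.7 and 16.3 CPM in MS+. Both rat sera lay above FBS in each rat and overlapped with each other. Against FBS the log2 fold change was 0.82 in MS- (SE 0.20; adjusted p = 0.0734) and 0.75 in MS+ (SE 0.20; adjusted p = 0.0653). Both were called with the block, with adjusted p-values of 0.00309 in MS- (range over the 16 alternatives 0.00281 to 0.31) and 0.00418 in MS+ (range over the 16 alternatives 0.00412 to 0.246). A second Nr4a3 row (NM_017352, 64719005 to 64727461) lies within the first, and reads that fall on both may have been dropped, so that the counts of either are uncertain. That row held 1.64 and 1.33 CPM in FBS, 2.74 and 3.98 CPM in MS-, and 0.721 and 1.84 CPM in MS+, a different order from the row used. The log2 difference of MS+ from MS- was -0.07 in the row used (95% interval -0.54 to 0.40) and -0.97 in the second row (95% interval -1.74 to -0.19). For the second row the adjusted p was 0.253, and 0.0496 with the block, the lowest among the 15 alternatives run for that row.

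Nab2 (NM_001134874, chromosome 7, 67642321 to 67648713, minus strand), the EGR corepressor, measured 143 and 148 CPM in FBS, 124 and 134 CPM in MS-, and 91.9 and 112 CPM in MS+. The 3 groups did not overlap, and the order FBS, MS-, MS+ was the same in both rats. Nab2 fell in MS+ against FBS, by a log2 fold change of -0.52 (SE 0.12; adjusted p = 0.0408). Against MS- the MS+ log2 fold change was -0.35 (SE 0.12), with an adjusted p of 0.253, and of 0.0255 with the block (range over the 16 alternatives 0.0255 to 0.584). MS- and FBS differed by -0.17 with a 95% interval from -0.45 to 0.11.

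Srf (NM_001109302, chromosome 9, 9788378 to 9797639, plus strand), which encodes the serum response factor itself, measured 211 and 186 CPM in FBS, 207 and 195 CPM in MS-, and 163 and 168 CPM in MS+, and both MS+ libraries lay below the other 4. Against FBS the MS+ log2 fold change was -0.26 (SE 0.10), with an adjusted p of 0.147, and of 0.0366 with the block (range over the 16 alternatives 0.0366 to 0.452). Against MS- it was -0.28 (SE 0.10; adjusted p = 0.269), and the blocked value, 0.053, also missed the threshold (range over the 16 alternatives 0.053 to 0.588). The log2 difference of MS- from FBS was 0.02, with a 95% interval from -0.21 to 0.25.

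**Figure D3:**
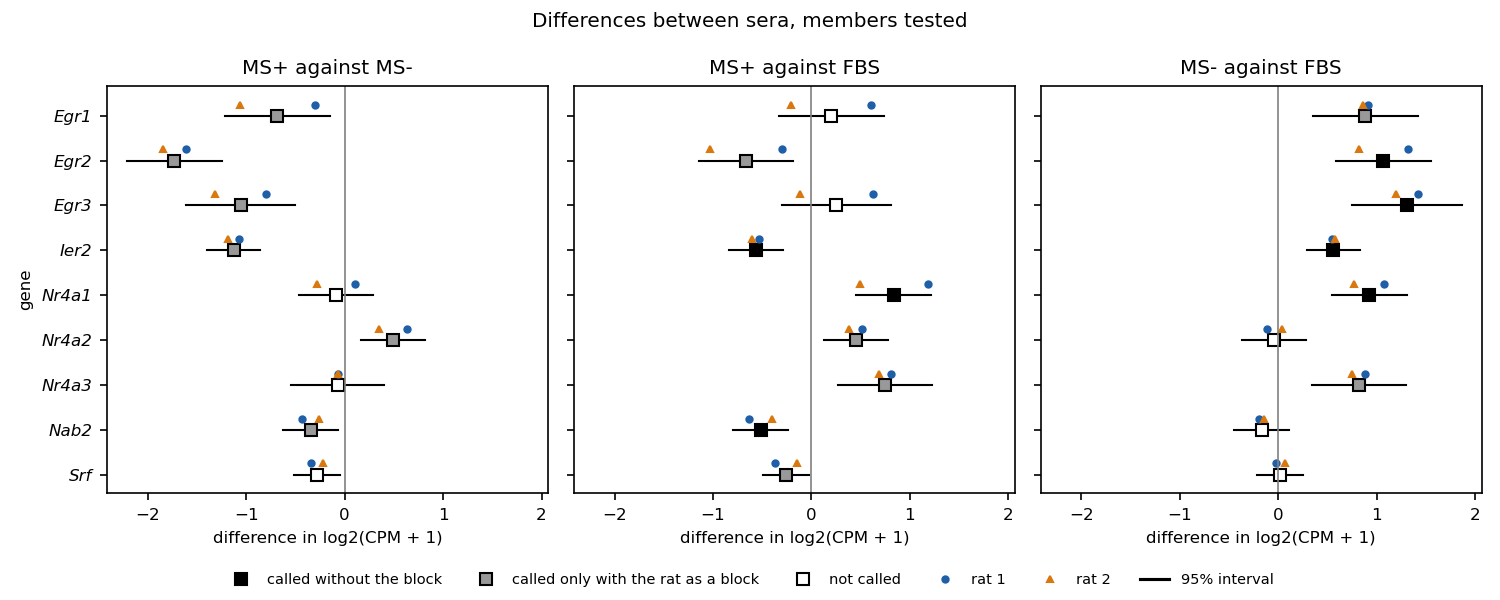
Differences in log2(CPM + 1) between sera for the 9 genes tested (vertical axis), with squares for the fitted value over both rats, lines for its 95% interval, and small circles and triangles for rats 1 and 2. Black squares were called without the rat as a block, grey squares only with it, and white squares in neither fit. Egr1, Egr2, Egr3 and Ier2 lie to the left of 0 for MS+ against MS- and to the right for MS- against FBS.

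Whether serum of stimulated animals acted on the cells differently from serum of animals without stimulation is asked by MS+ against MS-. Because MS- serum was drawn before any therapy and MS+ serum after 18 days of it, stimulation and time of drawing cannot be told apart here. Without the block 0 of the 9 genes were called, where 0.0204% of all rows were (2 of 9820). At an unadjusted p under 0.05 stood 7 of the 9 genes, against 14.7% of all rows, edgeR and limma-voom called 0 of them, with 0.0305% and 0.0204% of all rows, and DESeq2 called 2, Egr2 and Ier2, with 1.42% of the 8677 rows to which it gave an adjusted p. With the rat as a block 6 were called, where 10.1% of all rows were: Nr4a2 rose, and Egr1, Egr2, Egr3, Ier2 and Nab2 fell. A second rule, of an unadjusted p under 0.05 with a change of at least 2-fold and a mean of at least 1 CPM, took Egr2, Egr3 and Ier2, all lower, and 1.24% of all rows. The median log2 difference was -0.35 over the 9 genes and -0.0058 over all rows, and the groups did not overlap in 7 of the 9 genes and in 45.8% of all rows.

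The same serum against the standard culture serum is the comparison of MS+ with FBS. Without the block 3 of the 9 genes were called, where 9.61% of all rows were: Nr4a1 rose, and Ier2 and Nab2 fell. With the block 7 were called, where 28.2% of all rows were, adding Nr4a2 and Nr4a3 among those that rose and Egr2 and Srf among those that fell. The 2-fold rule took none of the 9, with 5.3% of all rows. Leaving out any 1 of the 6 libraries, MS- libraries included, left 0 or 1 of the 3 calls, and 25 to 602 of all rows called in place of 944.

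MS- against FBS sets serum of rats without stimulation beside the standard serum. Without the block 4 of the 9 genes rose (Egr2, Egr3, Ier2 and Nr4a1) and 0 fell, where 4.81% of all rows were called. With the block Egr1 and Nr4a3 joined them, for 6 in all, where 20.5% of all rows were called. The 2-fold rule took Egr2 and Egr3, with 3.62% of all rows. The median log2 difference was 0.82 over the 9 genes and 0.014 over all rows. Leaving out either FBS library or either MS- library left 0 of the 4 calls, with 105 to 178 of all rows called in place of 472, and leaving out an MS+ library left 3, with 279 to 280 of all rows. MS+ and MS- were each compared with the same FBS libraries, so that the 2 comparisons with FBS are not independent.

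Between the rats, with the sera averaged, 0 of the 9 genes were called in limma, and 0 in edgeR, where 10.5% of all rows were called in limma. Only Egr1 had an unadjusted p under 0.05, with a log2 difference of 0.25 between rat 2 and rat 1 (adjusted p = 0.205). Of the 27 differences between sera (9 genes, 3 comparisons), 22 had the same sign in both rats. The share over all rows was not computed, and within a rat the third comparison follows from the others, so that this count is a description only.

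Other immediate early genes were read from a list of 32, of which 30 were tested. In MS+ against MS-, 11 of the 30 were higher and 19 lower, with a median log2 difference of -0.22, and limma without the block called 0, with 12 at an unadjusted p under 0.05, as did edgeR and limma-voom, while DESeq2 called 4. With the block, 3 rose and 11 fell, where 10.1% of all rows were called. At an unadjusted p under 0.05 stood 14.7% of all rows, and DESeq2 called 1.42% of the rows to which it gave an adjusted p. Of the 4 most abundant, the matricellular genes Ctgf and Cyr61 and the phosphatase gene Dusp1 differed by -0.02, 0.09 and 0.11 on the log2 scale with no call in either fit, and Junb, an AP-1 subunit, was at 403 and 330 CPM in MS+ and 600 and 661 CPM in MS- (log2 fold change -0.79, SE 0.13; adjusted p = 0.111, called with the block). The 3 that rose with the block, named after their values were seen, were Csrnp1, Klf4 and Myc.

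In MS- against FBS, 3 of the 30 rose and 0 fell without the block, Btg2, Junb and Zfp36, and 7 rose and 4 fell with it. Of all rows 4.81% were called without the block and 20.5% with it. Junb had a log2 fold change of 0.90 (SE 0.13; adjusted p = 0.0143). Btg2, an antiproliferative gene named here because it was called, was at 92.8 and 98.2 CPM in FBS, 345 and 406 CPM in MS-, and 258 and 190 CPM in MS+. It was above FBS in both rat sera and lower in MS+ than in MS- in both rats. In MS+ against FBS, 4 rose (Btg2, Csrnp1, Dusp1 and Zfp36) and 2 fell (Dusp6 and Ier5) without the block, and 7 rose and 9 fell with it. Of all rows 9.61% were called without the block there and 28.2% with it. Fos, another AP-1 subunit named after its values were seen, was at 289 and 299 CPM in FBS, 248 and 394 CPM in MS-, and 178 and 104 CPM in MS+. Fos thus had no peak in MS- in rat 1, unlike the EGR genes, and was lowest in MS+ in both rats.

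**Figure D4:**
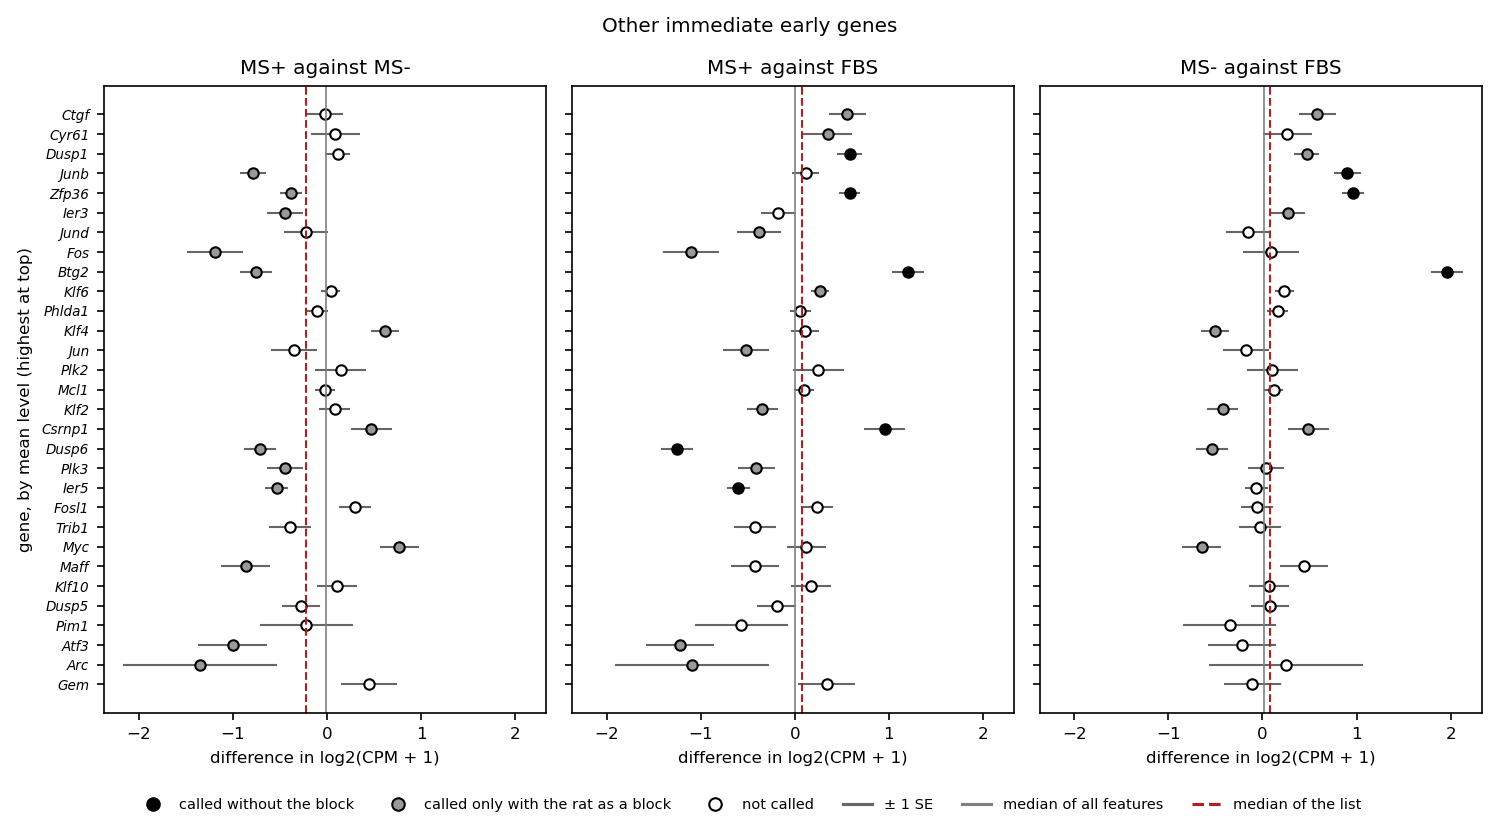
Differences in log2(CPM + 1) between sera for 30 other immediate early genes (vertical axis, ordered by mean level with the highest at the top), with circles for the fitted value, lines for 1 SE to each side, black fill for calls without the rat as a block, grey for calls only with it and white for neither. The dashed red line is the median of the list and the solid grey line that of all 9820 rows, which lie at -0.22 and -0.0058 for MS+ against MS-.

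Partners of SRF and EGR proteins were read from a list of 13, of which 8 were tested. Limma without the block called 0 in MS+ against MS- and in MS- against FBS, with 3 and 2 at an unadjusted p under 0.05, and edgeR, limma-voom and DESeq2 also called 0. At that unadjusted p stood 14.7% and 21.1% of all rows in these comparisons. In MS+ against FBS, Nab1, the related EGR corepressor, rose by 0.57 on the log2 scale (adjusted p = 0.0238), opposite to Nab2, and Fhl2, an LIM-domain cofactor of SRF, fell (log2 fold change -0.61; adjusted p = 0.0134). Elk3, an ETS factor that binds with SRF, and Myocd, its muscle coactivator, had log2 differences of -0.26 and 0.76 there, both called with the block only. With the block, Elk3 also fell in MS+ against MS- (log2 difference -0.32). In MS- against FBS, Nab1 (0.38) and Myocd (0.62) rose and Fhl2 (-0.35) fell with the block. Of all rows the block called 10.1% in MS+ against MS-, 28.2% in MS+ against FBS and 20.5% in MS- against FBS.

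Cytoskeletal targets of SRF with its MRTF coactivators held 13 tested genes of 14 listed, and limma without the block called 0 in each of the 3 comparisons, as did edgeR and limma-voom. At an unadjusted p under 0.05 stood 3 in MS+ against MS-, 4 in MS+ against FBS and 3 in MS- against FBS, and DESeq2 called 0, 2 and 2. Of all rows 14.7%, 27.5% and 21.1% stood at that unadjusted p. Actb, Flna, Tagln and Cald1, the most abundant, differed between MS+ and MS- by 0.18, 0.03, 0.01 and -0.01 on the log2 scale. With the block 1 rose and 3 fell in MS+ against MS-, 1 rose and 3 fell in MS+ against FBS, and 2 rose and 1 fell in MS- against FBS. Of all rows the block called 10.1%, 28.2% and 20.5%, so that the counts against FBS lie near the share over all rows.

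Known EGR target genes held 7 tested of 10 listed. In MS+ against MS- limma without the block called 0, with 1 at an unadjusted p under 0.05, as did edgeR, limma-voom and DESeq2. Pdgfa, which encodes a growth factor chain and like F3 is named because it was called, rose against FBS in MS- (log2 fold change 0.64; adjusted p = 0.0164) and in MS+ (0.60; adjusted p = 0.0147), and F3, tissue factor, rose in MS+ against FBS (1.18; adjusted p = 0.0314). With the block 1 rose in MS+ against MS-, F3 (log2 difference 0.55), and 1 fell. In MS- against FBS 3 rose with the block, F3 among them (0.63), and 0 fell. Of all rows the block called 10.1% in MS+ against MS- and 20.5% in MS- against FBS, and 14.7% stood at an unadjusted p under 0.05 in MS+ against MS-. Mmp14, Cd44 and Tgfb1, among the most abundant, had log2 differences of -0.12, 0.10 and 0.23 in MS- against FBS, with no call in either limma fit.

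Genes that respond to cyclic AMP held 6 tested of 10 listed. Per1, a clock gene with cyclic AMP response elements, was at 33.7 and 40.0 CPM in FBS, 106 and 104 CPM in MS-, and 168 and 146 CPM in MS+, and rose against FBS in both sera (log2 fold change 1.49 in MS-, adjusted p = 0.00234, and 2.06 in MS+, adjusted p = 0.00093). Between MS+ and MS- the Per1 log2 difference was 0.58, called in limma with the block only. DESeq2, without the block, called 1 of the 6 genes in this comparison, and 1.42% of the rows to which it gave an adjusted p. Nfil3, Sik1 and Pde4b, the next in abundance, had log2 differences of -0.34, 0.17 and 0.08 between MS+ and MS- with no call in either limma fit. Against FBS, Nfil3 was lower in MS+ (log2 difference -0.72) and Sik1 in MS+ (-0.54) and in MS- (-0.71), each called with the block only. Of all rows the block called 28.2% in MS+ against FBS and 20.5% in MS- against FBS. Upstream kinases and other genes of the pathways that lead to the response held 11 tested of 12 listed. Rock2, a kinase that acts on the actin cytoskeleton, was the one called without the block, in both comparisons with FBS. It was at 301 and 386 CPM in FBS, 701 and 737 CPM in MS-, and 877 and 633 CPM in MS+. Rhoa, Rock1 and Mapk3, the next in abundance, differed between MS+ and MS- by 0.06, -0.33 and -0.15 on the log2 scale with no call in either fit.

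Rows with profiles most like 3 of the genes were sought among 7312 rows with a mean of at least 10 CPM, by the root mean square difference of their centred log2 values over the 6 libraries. Nearest to Egr1 were Trove2 (0.135), Arl5b (0.140) and Junb (0.149). Nearest to Egr2 were Txnip (0.278), Ppip5k1 (0.289) and Ier2 (0.329), which lay farther from it than the neighbours of Egr1 did from Egr1. Txnip, an arrestin that binds thioredoxin, was at 179 and 166 CPM in FBS, 259 and 321 CPM in MS-, and 99.6 and 106 CPM in MS+, the same order of sera as Egr2 and Ier2. Nearest to Nr4a1 were Cds2 (0.0582), Tfpi2 (0.0726) and Dram (0.0859), each above FBS in both rat sera.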

How the data were processed

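Poly(A) RNA libraries were sequenced for the authors. Per the labels and the study's methods, the authors aligned the reads to the rat genome rn4 with Bowtie2 2.1.0, counted them per transcript with HTSeq 0.5.4p3 and deposited a normalized signal, the CPM after TMM scaling in edgeR. Strand use in counting is not given in the sources used here. Whole reads were recovered for 100% of the values in each library, within 1e-06 reads. Libraries held 5463316 to 5991889 reads, and the floor of 3 reads covers counting error only.

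Rows with at least 1 CPM in both libraries of a group (9820) were fitted in R 4.3.3 with limma 3.58.1 (lmFit, eBayes with trend) on log2(CPM + 1), with serum as the only term and the 6 libraries sharing one estimate of the spread. P-values were adjusted by Benjamini-Hochberg over all 9820 rows. Without the block they measure the spread between 2 rats, and with it the spread left after the mean difference between the rats is removed. With the number of serum donors not stated, neither can be taken to measure the spread between donors. Alternatives to the fit without the block were DESeq2 size factors, library totals, a pseudocount of 0.1, no filter and rows summed per symbol. Further alternatives were edgeR 4.0.16, limma-voom and DESeq2 1.42.0 on the recovered reads, and the rat as a block in limma and edgeR. Each library was also left out in fits without the block, with the lone library of a group taken to vary like the others. By the labels and the series' design text, cells of the same 2 rats stand under each of the 3 sera, so the replicate numbers pair the libraries. The difference between the rats, over 9820 rows, correlated between MS+ and MS- (r = 0.59), MS+ and FBS (r = 0.49) and MS- and FBS (r = 0.62). The fits were tested on simulated data.

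The members and gene lists were chosen with earlier results of these data known. All members are named, with the 3 nearest profiles of Egr1, Egr2 and Nr4a1 and the 4 most abundant genes of each list, of which 1 is not reported here. Genes named beyond these were chosen after their values were seen. Motifs were searched in RefSeq windows (GRCr8) on both strands, and coordinates of rows are those of rn4, counted from 1.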

Additional observations from a re-analysis of the deposited data

Results flagged for a closer look

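Between the rats, 5 of the 27 differences had opposite signs, which flagged them, and whether the rats differed was not tested. For MS+ against FBS, Egr1 differed by 0.60 in rat 1 and -0.21 in rat 2 on the log2(CPM + 1) scale, and Egr3 by 0.62 and -0.12. For MS+ against MS-, Nr4a1 differed by 0.10 in rat 1 and -0.28 in rat 2. For MS- against FBS, Nr4a2 differed by -0.11 and 0.0354, and Srf by -0.0271 and 0.0706, in rats 1 and 2.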

How the results depend on the processing

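Of 432 recomputed differences (9 genes, 3 comparisons, 16 alternatives), 357 kept their sign and their side of the threshold, 27 kept the sign and passed the threshold only under the alternative, 40 kept the sign and no longer passed it, and 8 changed sign. The number of genes called in MS+ against MS- was 0 without the block, 6 with the replicate block (the rat as a block) in limma, 6 with the block in edgeR and 2 in DESeq2. In MS+ against FBS it was 3 without the block, 7 with the replicate block in limma and in edgeR, and 1 with no filter, and 0 to 1 when 1 library was left out. In MS- against FBS it was 4, with 6 under the replicate block in limma and in edgeR, 5 in DESeq2, 3 with library totals, 0 under no filter and 0 to 3 when 1 library was left out. Between the rats it was 0, and 0 to 1 when 1 library was left out. Under the 2-fold rule, leaving out 1 library gave 0 to 1 gene in MS+ against FBS (0 with all libraries) and 1 to 5 in MS- against FBS (2 with all libraries), with 1 gene without FBS replicate 1 and 5 without FBS replicate 2. Apart from limiting how many samples or rows entered, the cause of these changes was not tested.

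The 8 changes of sign were in differences that were not called. When 1 library was left out, for MS+ against MS- Nr4a1 ran from -0.31 to 0.13 (positive without MS+ replicate 2) and Nr4a3 from -0.19 to 0.0489 (positive without MS- replicate 2 and without MS+ replicate 1). For MS+ against FBS, Egr1 ran from -0.0678 (without FBS replicate 1) to 0.47. For MS- against FBS, Nr4a2 ran from -0.12 to 0.0442 (positive without MS- replicate 1) and Srf from -0.0688 to 0.11 (negative without FBS replicate 2 and without MS- replicate 1), and with library totals Srf gave -0.00903. With 2 rats and an unstated number of serum donors, the calls speak to these cells and these sera. Egr4 lies under the floor of detection, and Egr3 and Nr4a3 rest on fewer than 100 reads per library.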
